A study of Mus musculus with 8 samples.

Results

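Sterol metabolism was examined here in mouse spinal cord through 33 genes: 8 of the mevalonate steps, 12 of the later sterol steps, 5 that control the SREBP transcription factors, and 8 of the LXR receptors, their targets and sterol transport. The genes were chosen by symbol, as genes of these steps, from the 47643 gene identifiers of the count table, and all 33 had enough counts to be tested. The lowest count of any of them in a library was 59, for Nr1h3. Total RNA came from the spinal cord of 8 C57BL/6 mice, 4 labelled homozygous and 4 labelled heterozygous, with tamoxifen injected at 100 mg/kg for deletion of Arf1. Arf1 is a small GTPase that recruits the COPI coat to Golgi membranes, and the design note names its role in neurons as the subject. The labels give an age of 2 to 10 months without an age or sex for single animals, and they name no wild-type group. The sources used here name neither the Cre driver nor the design of the Arf1 allele, and each group is known only as homozygous or heterozygous.

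Cholesterol in the nervous system is made in place, because the blood-brain and blood-spinal cord barriers keep out lipoproteins of the blood. Myelin is especially rich in it. Cells build it from acetyl-CoA through mevalonate, farnesyl diphosphate, squalene and lanosterol. The SREBP proteins, encoded by Srebf1 and Srebf2, turn on genes of these steps: Scap carries them from the endoplasmic reticulum to the Golgi for cleavage, and Insig proteins hold them back when sterols are plentiful. The LXR receptors respond to oxysterols and turn on genes of sterol export.

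The homozygous libraries held 26321497 to 37879391 expected counts and the heterozygous libraries 29857180 to 37803565. In homozygous replicate 3, 92.36% of reads mapped and 2.44% of bases were ribosomal, against 98.33% to 98.53% and 0.10% to 0.34% in the other 7 libraries. The RNA integrity number was 8 in homozygous replicate 4 and 9 in the others. Arf1, the gene to be deleted, stood at 307, 22.5, 22.8 and 39.9 CPM (counts scaled to library size by the TMM method) in homozygous replicates 1 to 4, against 334, 296, 322 and 303 CPM in heterozygous replicates 1 to 4. The level of Arf1 in the library labelled homozygous replicate 1 thus goes against its label, so all tests were run on the 8 libraries and again on the 7 without it. For Arf1 itself the log2 difference was -1.67 (SE 0.95, edgeR adjusted p = 0.42) in 8 libraries and -3.46 (SE 0.21, edgeR adjusted p = 0.000796) in 7, where the choice of libraries used its level. Xist, a transcript of the inactive X chromosome, stood at 1.78, 4.76, 33.7 and 412 CPM in the homozygous libraries, against 44.5, 0.0665, 0 and 386 CPM in the heterozygous libraries, so both groups held high and low libraries. The authors' deposited table of 185 genes holds 0 of the 33. The largest false discovery rate in the authors' deposited table is 0.0936. Their table of called genes holds 6 libraries, without homozygous replicate 1 and heterozygous replicate 1, so it is no like comparison for either fit here. On those 6 libraries edgeR called 4 of the 33 genes lower here and 0 higher, at an adjusted p under 0.05. No share of all genes is given for those 6 libraries, so this count cannot be set against a background. Replicate numbers only name the libraries in the order of deposition, and the p-values measure the spread between these animals.

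Of the 33 genes, 20 are enzymes of cholesterol synthesis, and 18 of these 20 had a negative log2 fold change (homozygous over heterozygous) in both fits, with the largest differences for Hmgcs1, Mvd and Idi1. The SREBP and LXR genes were split between both directions. In the fit of 7 libraries, 5 genes fell past edgeR's quasi-likelihood test at an adjusted p under 0.05 and 0 rose: Hmgcs1 and Mvd of the mevalonate steps, Hsd17b7 and Sc5d of the sterol steps, and Stard4, a carrier of sterol between membranes. Over all genes tested in that fit, 0.67% fell and 0.55% rose past the same threshold. In the fit of 8 libraries, edgeR called 0 of the 33 genes and also 0% of all genes in either direction. At an unadjusted p under 0.05 there, 17 of the 33 were lower and 1 was higher, against 8.9% and 7.87% of all genes. In 7 libraries 17 were lower and 3 higher at that p, against 9.94% and 9.51% of all genes. All homozygous libraries lay below all heterozygous ones for 13 of the 33 genes in 8 libraries and 16 in 7, against 4.67% and 8.77% of all genes. They lay above for 0 genes in 8 libraries and 1 in 7, against 4.61% and 9.76% of all genes. With the same 8 libraries, DESeq2 called 12 of the 33 lower and 0 higher, against 2.48% and 1.64% of all genes, and limma-voom called 0 of them and 0% of all genes. In 7 libraries DESeq2 called 12 of the 33 lower and 0 higher, against 3.93% and 2.6% of all genes. There limma-voom called 1 lower, Hmgcs1, and 0 higher, against 0.477% and 0.471% of all genes. Limma on log2(TPM + 1) called 20 lower and 0 higher in 7 libraries, against 12.7% and 0.574% of all genes, and 0 of the 33 in 8, where 0.00606% of all genes were lower and 0% higher. On that scale the median difference over all genes was itself negative, at -0.175 in 7 libraries and -0.14 in 8.

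**Figure D1:**
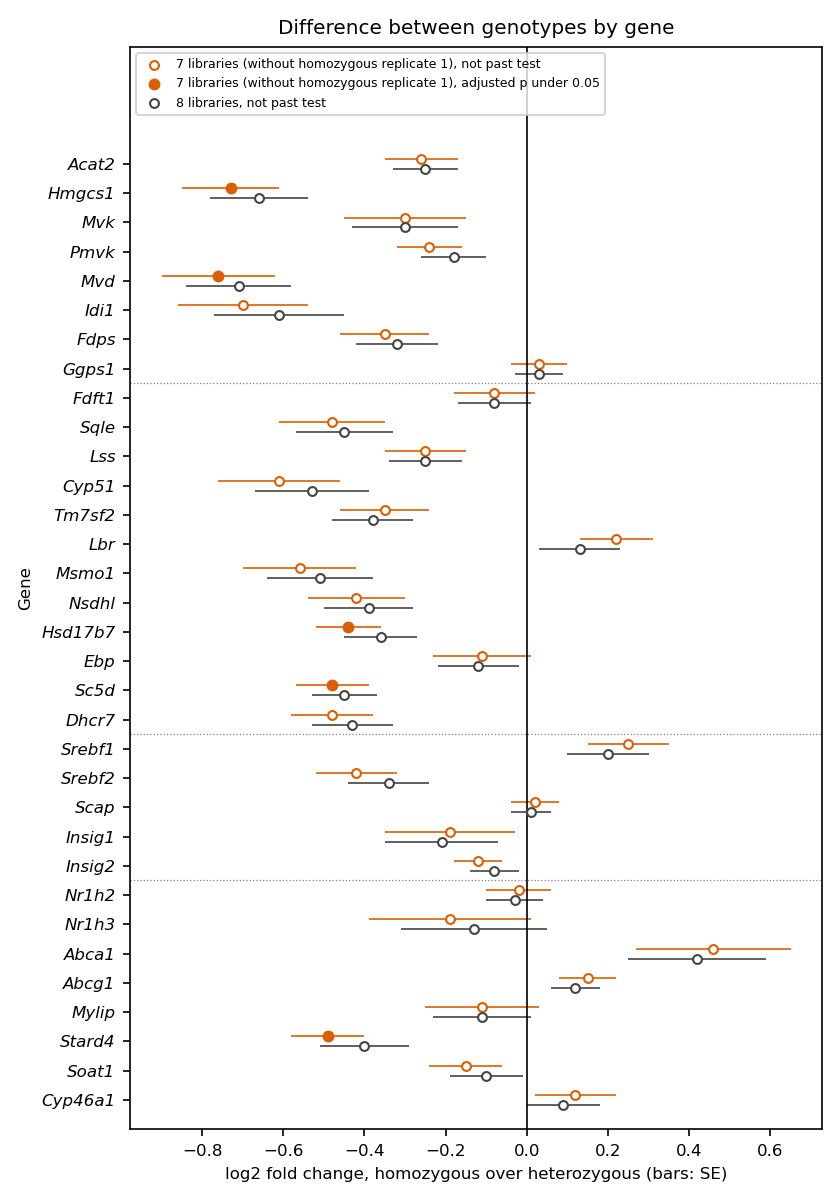
Log2 fold change (x axis, homozygous over heterozygous) of each gene (y axis, in pathway order), in orange for 7 libraries and grey for 8, with bars for the SE and filled points for an adjusted p under 0.05. Of the 20 synthesis genes above the second dotted line, 18 lie left of 0 in both fits, and the 5 filled points are Hmgcs1, Mvd, Hsd17b7, Sc5d and Stard4.

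The sequences before the start of transcription are shown for 4 of the 5 genes that fell, because synthesis genes are known targets of SREBP, which binds a sterol regulatory element and often acts with the factor NF-Y at a CCAAT box. They are RefSeq windows on GRCm38.p6 of 250 bases before to 50 after the start, written on the gene's strand. Hmgcs1 (ENSMUSG00000093930.1, HMG-CoA synthase) is taken from chr13:119690101-119690400 on the plus strand. Mvd (ENSMUSG00000006517.4, the decarboxylase that ends the mevalonate steps to isopentenyl diphosphate) is taken from chr8:122443373-122443672 on the minus strand. Hsd17b7 (ENSMUSG00000026675.12, the reductase of 3-keto sterols) is taken from chr1:169969156-169969455 on the minus strand. Sc5d (ENSMUSG00000032018.13, the desaturase that makes 7-dehydrodesmosterol or 7-dehydrocholesterol) is taken from chr9:42264251-42264550 on the minus strand. The GENCODE annotation of GRCm38 places Hmgcs1 on chromosome 13 from 119690379 to 119708260, Mvd on chromosome 8 from 122433601 to 122443422, Hsd17b7 on chromosome 1 from 169949535 to 169969241 and Sc5d on chromosome 9 from 42251595 to 42264256. Capitals mark a sterol regulatory element (TCACNCCAC) or a CCAAT box (CCAAT), each on either strand.
Hmgcs1: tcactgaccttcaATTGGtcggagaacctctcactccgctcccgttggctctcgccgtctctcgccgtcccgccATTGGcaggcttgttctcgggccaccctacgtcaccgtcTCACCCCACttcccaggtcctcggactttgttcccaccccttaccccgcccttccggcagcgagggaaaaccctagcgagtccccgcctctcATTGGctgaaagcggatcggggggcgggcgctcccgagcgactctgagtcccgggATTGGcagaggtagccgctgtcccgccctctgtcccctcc
Mvd: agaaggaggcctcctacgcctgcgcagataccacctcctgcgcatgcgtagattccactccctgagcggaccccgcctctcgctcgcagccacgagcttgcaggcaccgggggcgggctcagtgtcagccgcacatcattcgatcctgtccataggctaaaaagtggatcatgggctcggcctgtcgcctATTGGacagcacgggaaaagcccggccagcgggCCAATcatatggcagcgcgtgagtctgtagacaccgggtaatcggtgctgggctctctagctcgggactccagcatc
Hsd17b7: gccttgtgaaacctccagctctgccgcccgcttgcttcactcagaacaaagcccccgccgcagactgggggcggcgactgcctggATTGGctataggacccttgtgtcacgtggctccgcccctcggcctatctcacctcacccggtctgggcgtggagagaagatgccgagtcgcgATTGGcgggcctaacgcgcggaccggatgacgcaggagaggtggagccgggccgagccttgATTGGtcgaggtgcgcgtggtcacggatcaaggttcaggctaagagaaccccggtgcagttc
Sc5d: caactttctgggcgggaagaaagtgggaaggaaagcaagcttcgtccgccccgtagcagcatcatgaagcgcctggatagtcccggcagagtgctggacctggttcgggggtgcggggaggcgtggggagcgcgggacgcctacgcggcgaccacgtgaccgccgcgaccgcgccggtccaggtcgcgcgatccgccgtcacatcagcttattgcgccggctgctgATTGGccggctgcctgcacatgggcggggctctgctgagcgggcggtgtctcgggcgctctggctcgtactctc

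The Hmgcs1 window held 1 sterol regulatory element, at 137 to 129 bases before the start, and 4 CCAAT boxes. The windows of Mvd, Hsd17b7 and Sc5d held 2, 3 and 1 CCAAT boxes, and none of these matches overlapped another. Of the 33 genes, 28 had an entry in the table, with 37 windows of its 32851, and several windows of 1 gene can overlap. TCACNCCAC was found in 1 of the 37 windows, that of Hmgcs1, and in 1.24% of all windows. This search took a single near-exact pattern in a short window, so it cannot tell whether the other genes lack such an element. CCAAT was found in 16 of the 20 windows of synthesis genes (80.0%), in 8 of the 17 windows of the other genes (47.1%) and in 37.4% of all windows. GGGCGG, the GC box of the factor Sp1, was found in 28 of the 37 windows (75.7%) and in 35.7% of all windows. It was in 16 of the 20 windows of synthesis genes (80.0%) and in 12 of the 17 windows of the other genes (70.6%). The direct repeat that LXR receptors bind, searched as AGGTCA, any 4 bases and AGGTCA again, was found in 0 of the 37 windows and in 0.0152% of all windows. So strict a pattern matched only 5 of the 32851 windows, so this search cannot tell whether the 28 genes lack such an element. These are matches of letters on both strands, and no binding was measured.

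The mevalonate steps turn acetyl-CoA into isoprenoid diphosphates. Their median log2 fold change over the 8 genes was -0.31 in 8 libraries and -0.33 in 7 libraries, beside 0.00 for all genes in each. All 4 homozygous libraries lay below all 4 heterozygous ones for 5 of the 8 genes, where 4.67% of all genes did so. Fold changes below are homozygous over heterozygous on the log2 scale.

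Hmgcs1, which joins acetyl-CoA to acetoacetyl-CoA, stood at 274, 185, 235 and 269.7 CPM in homozygous replicates 1 to 4, against 363, 418, 392 and 349.5 CPM in heterozygous replicates 1 to 4. The groups did not overlap, and homozygous replicate 2 was the lowest library. In 7 libraries it averaged 230.0 ± 42.6 CPM in the homozygous libraries (SD, n = 3) and 381 ± 30.6 CPM in the heterozygous libraries (SD, n = 4). It fell to 60.4% of the heterozygous level (log2 fold change -0.73, SE 0.12, edgeR adjusted p = 0.0345). In 8 libraries the log2 fold change was -0.66 (SE 0.12, edgeR adjusted p = 0.0962). Mvd, the decarboxylase, stood at 14.7, 10.9, 14.5 and 13.3 CPM in the homozygous libraries, against 19.1, 25.3, 24.3 and 18.8 CPM in the heterozygous libraries. These groups also did not overlap. In 7 libraries Mvd fell to 59.2% of the heterozygous level (log2 fold change -0.76, SE 0.14, edgeR adjusted p = 0.0406). In 8 libraries its log2 fold change was -0.71 (SE 0.13, edgeR adjusted p = 0.0962).

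Idi1, the isomerase of isopentenyl diphosphate, had differences of like size that did not pass the test. It stood at 45.5, 28.4, 36.8 and 44.3 CPM in the homozygous libraries, against 50.7, 70.2, 62.8 and 53.7 CPM in the heterozygous libraries. The groups did not overlap, but both spread widely, and the log2 fold change was -0.61 (SE 0.16, edgeR adjusted p = 0.138) in 8 libraries and -0.70 (SE 0.16, edgeR adjusted p = 0.0761) in 7. Fdps, which makes farnesyl diphosphate, stood at 51.9, 40.8, 49.8 and 52.6 CPM in the homozygous libraries, against 56.2, 68.2, 65.8 and 53.6 CPM in the heterozygous libraries. Acat2, the acetoacetyl-CoA thiolase, stood at 49.0, 46.7, 51.1 and 47.2 CPM in the homozygous libraries, against 52.8, 65.7, 59.6 and 52.9 CPM in the heterozygous libraries. For both genes the nearest libraries of the groups were close together. Their log2 fold changes in 8 libraries were -0.32 (SE 0.10, edgeR adjusted p = 0.176) for Fdps and -0.25 (SE 0.08, edgeR adjusted p = 0.166) for Acat2. In 7 libraries they were -0.35 (edgeR adjusted p = 0.137) and -0.26 (edgeR adjusted p = 0.153). The mevalonate kinase Mvk (12.8 to 13.6 CPM in the homozygous and 11.9 to 18.8 CPM in the heterozygous libraries) and the phosphomevalonate kinase Pmvk (38.2 to 47.1 CPM in the homozygous and 42.9 to 51.4 CPM in the heterozygous libraries) overlapped. For Mvk the homozygous libraries lay close together inside the wider heterozygous range, with a log2 fold change of -0.30 in both fits (SE 0.13 in 8 libraries, edgeR adjusted p = 0.281; 0.296 in 7). For Pmvk it was -0.18 in 8 libraries (edgeR adjusted p = 0.307) and -0.24 in 7 (edgeR adjusted p = 0.172).

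Ggps1 makes geranylgeranyl diphosphate, a branch that leads to lipid anchors of proteins and not to sterols. It stood at 29.9, 31.7, 29.3 and 29.4 CPM in the homozygous libraries, against 31.0, 29.0, 28.1 and 29.9 CPM in the heterozygous libraries. Its groups overlapped, with a log2 fold change of 0.03 (SE 0.06, edgeR adjusted p = 0.848) in 8 libraries and 0.03 in 7. A list of 11 other genes of the isoprenoid branches had a median log2 fold change of 0.03 in 8 libraries and 0.05 in 7. In both fits 0 of the 11 passed edgeR's test in either direction, where 0.67% of all genes fell and 0.55% rose in 7 libraries and 0% in 8. At an unadjusted p under 0.05, 1 of these 11 was lower in each fit and 0 were higher. That share is close to the 8.9% of all genes in 8 libraries and 9.94% in 7 that were lower.

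**Figure D2:**
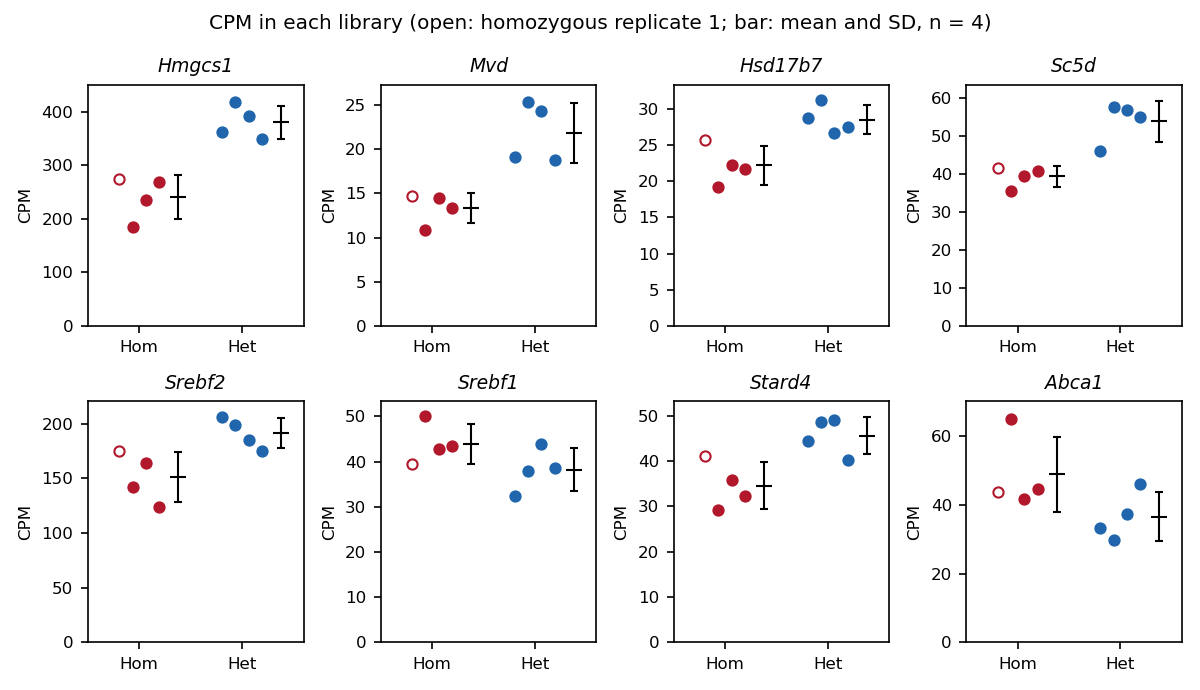
CPM (y axis, starting at 0) in each library for 8 of the genes, with the homozygous group left of the heterozygous group, an open circle for homozygous replicate 1, and a black bar with the mean and SD (n = 4). The groups do not overlap for Hmgcs1, Mvd, Hsd17b7 and Sc5d, while for Abca1 homozygous replicate 2 at 65.0 CPM stands above all other libraries.

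The later sterol steps run from farnesyl diphosphate to cholesterol. Their median log2 fold change over 12 genes was -0.39 in 8 libraries and -0.43 in 7. The homozygous libraries lay wholly below the heterozygous ones for 8 of the 12 genes in both fits, against 4.67% of all genes in 8 libraries and 8.77% in 7. The first enzyme, squalene synthase (Fdft1), overlapped at 99.5 to 122 CPM in the homozygous and 99.6 to 126 CPM in the heterozygous libraries, with a log2 fold change of -0.08 in both fits. Sqle, the squalene epoxidase and a rate-limiting enzyme, stood at 58.7, 43.5, 57.1 and 61.9 CPM in the homozygous libraries, against 65.3, 85.9, 79.7 and 71.5 CPM in the heterozygous libraries. The groups did not overlap, but Sqle did not pass the test (log2 fold change -0.45, SE 0.12, edgeR adjusted p = 0.138 in 8 libraries; -0.48, SE 0.13, edgeR adjusted p = 0.103 in 7). Lss, which closes squalene epoxide into lanosterol, overlapped at 27.4 to 32.4 CPM in the homozygous and 29.8 to 38.5 CPM in the heterozygous libraries (log2 fold change -0.25 in both fits, edgeR adjusted p = 0.208 in 8 libraries and 0.198 in 7).

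Lanosterol is next stripped of methyl groups. Cyp51, its 14-demethylase, stood at 76.3, 49.9, 65.9 and 70 CPM in the homozygous libraries, against 79.1, 106, 108 and 86.1 CPM in the heterozygous libraries. Msmo1, the C4-methyl oxidase, stood at 75.3, 50.4, 72.4 and 72.7 CPM in the homozygous libraries, against 84.9, 107, 105 and 88.2 CPM in the heterozygous libraries. For both genes the groups did not overlap, and homozygous replicate 2 lay far below the other homozygous libraries. Neither passed the test in 7 libraries, with log2 fold changes of -0.61 (SE 0.15, edgeR adjusted p = 0.077) for Cyp51 and -0.56 (SE 0.14, edgeR adjusted p = 0.0858) for Msmo1. In 8 libraries they were -0.53 (edgeR adjusted p = 0.143) for Cyp51 and -0.51 (edgeR adjusted p = 0.138) for Msmo1. Nsdhl, which removes the C4 carboxyl group and is X-linked, ranged from 15.3 to 19.1 CPM in the homozygous and from 19.2 to 25.5 CPM in the heterozygous libraries (log2 fold change -0.39 in 8 libraries, SE 0.11, edgeR adjusted p = 0.143; -0.42 in 7, edgeR adjusted p = 0.108).

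Tm7sf2 and Lbr encode enzymes of the same C14 reduction, and they stood on opposite sides of 0. Tm7sf2 stood at 8.93, 8.89, 9.83 and 10.4 CPM in the homozygous libraries, against 11.4, 14.0, 12.7 and 11.6 CPM in the heterozygous libraries, without overlap. Lbr, which is also a receptor for lamins in the inner nuclear membrane, stood at 10.5, 13.5, 13.3 and 13.9 CPM in the homozygous libraries, against 11.6, 11.1, 12.7 and 11.3 CPM in the heterozygous libraries. Homozygous replicates 2 to 4 lay above every heterozygous library for Lbr, and homozygous replicate 1 lay below them. In 7 libraries the log2 fold changes were -0.35 (SE 0.11, edgeR adjusted p = 0.123) for Tm7sf2 and 0.22 (SE 0.09, edgeR adjusted p = 0.209) for Lbr, and neither passed. In 8 libraries they were -0.38 (edgeR adjusted p = 0.135) for Tm7sf2 and 0.13 (edgeR adjusted p = 0.536) for Lbr. No other of the 33 genes had its 3 homozygous libraries wholly above the heterozygous ones.

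The last steps reshape the sterol ring. Hsd17b7 stood at 25.7, 19.2, 22.2 and 21.7 CPM in the homozygous libraries, against 28.7, 31.2, 26.7 and 27.5 CPM in the heterozygous libraries. It fell in 7 libraries to 73.6% of the heterozygous level (log2 fold change -0.44, SE 0.08, edgeR adjusted p = 0.0448). In 8 libraries its log2 fold change was -0.36 (SE 0.09, edgeR adjusted p = 0.135). The groups did not overlap, and the library labelled homozygous replicate 1 was the highest of its group. Sc5d stood at 41.7, 35.5, 39.5 and 40.8 CPM in the homozygous libraries, against 46.0, 57.8, 57.0 and 55.0 CPM in the heterozygous libraries, again without overlap. It fell in 7 libraries to 71.6% of the heterozygous level (log2 fold change -0.48, SE 0.09, edgeR adjusted p = 0.0448). In 8 libraries the log2 fold change of Sc5d was -0.45 (SE 0.08, edgeR adjusted p = 0.0962). Dhcr7, the reductase that makes cholesterol from 7-dehydrocholesterol, stood at 25.4, 19.5, 21.9 and 25.3 CPM in the homozygous libraries, against 27.4, 33.1, 32.5 and 31.4 CPM in the heterozygous libraries. It just missed the threshold in 7 libraries (log2 fold change -0.48, SE 0.10, edgeR adjusted p = 0.0546). The value for Dhcr7 in 8 libraries was -0.43 (SE 0.10, edgeR adjusted p = 0.121). Ebp, the sterol isomerase, which is X-linked, overlapped at 12.6 to 17.4 CPM in the homozygous and 16.2 to 17.5 CPM in the heterozygous libraries (log2 fold change -0.12 in 8 libraries and -0.11 in 7).

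**Figure D3:**
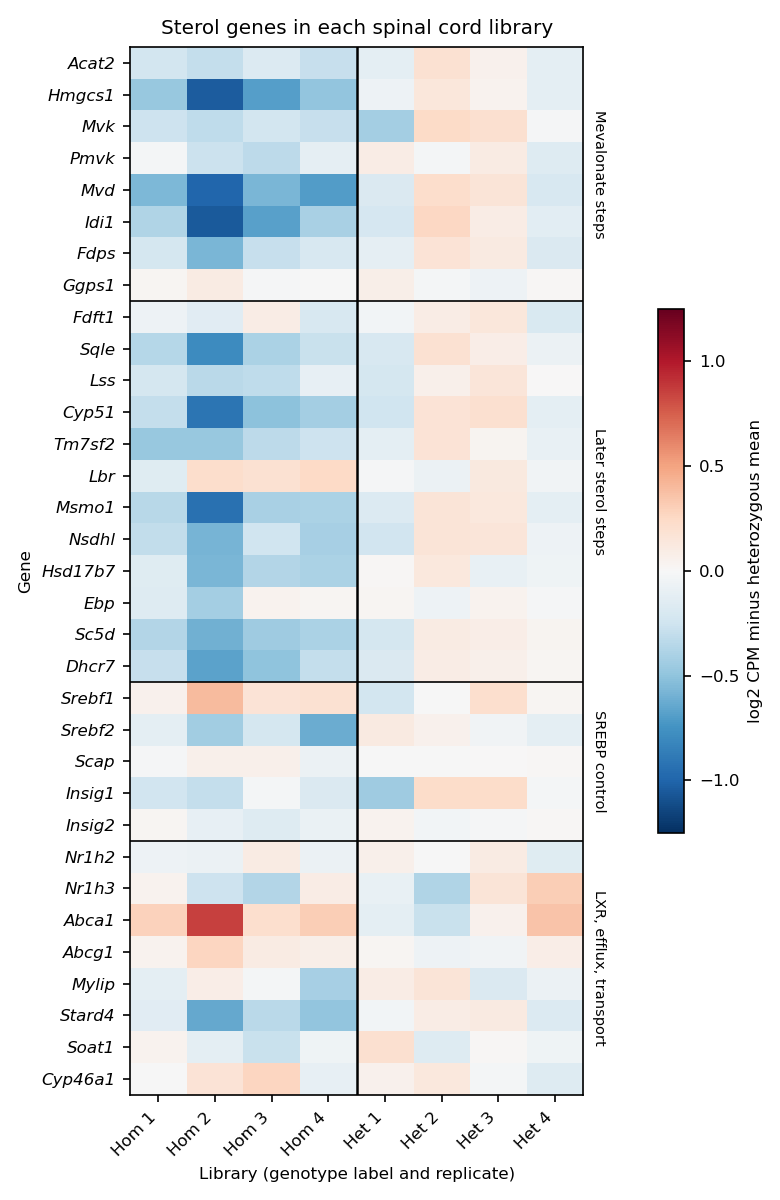
Log2 CPM minus the heterozygous mean (colour, blue for lower and red for higher) of each gene (rows) in each library (columns, homozygous left of the line). The synthesis genes of the upper panels are bluest in homozygous replicate 2, which holds the lowest value of all libraries for 15 of the 20.

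Each synthesis gene was set against its heterozygous mean, and the 20 differences were averaged within a library. The average was -0.27, -0.53, -0.31 and -0.27 (log2) in homozygous replicates 1 to 4, against -0.13, 0.12, 0.09 and -0.08 in heterozygous replicates 1 to 4. Homozygous replicate 2 stood lowest, and heterozygous replicate 1 was the lowest of its group for 11 of the 20 genes. Homozygous replicate 1, whose Arf1 level was that of a heterozygous library, lay with the other homozygous libraries in this average.

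The SREBP genes had differences in both directions, and none passed the test. Srebf2, whose protein mainly drives sterol synthesis, stood at 175, 142, 164 and 124 CPM in the homozygous libraries, against 206, 199, 185 and 175 CPM in the heterozygous libraries. Homozygous replicates 2 to 4 lay below every heterozygous library and homozygous replicate 1 was level with the lowest of them. The log2 fold change was -0.34 (SE 0.10, edgeR adjusted p = 0.166) in 8 libraries and -0.42 (SE 0.10, edgeR adjusted p = 0.073) in 7. Srebf1, whose protein mainly drives fatty acid synthesis, stood at 39.5, 50, 42.8 and 43.4 CPM in the homozygous libraries, against 32.4, 37.9, 43.9 and 38.7 CPM in the heterozygous libraries. Its groups overlapped, and the log2 fold change was positive at 0.20 (SE 0.10, edgeR adjusted p = 0.33) in 8 libraries and 0.25 (SE 0.10, edgeR adjusted p = 0.224) in 7.

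Insig1, a retention factor that is itself an SREBP target, stood at 64.7, 62.0, 74.8 and 67.4 CPM in the homozygous libraries, against 56.2, 89.5, 89.6 and 74.8 CPM in the heterozygous libraries. Heterozygous replicate 1 was the lowest of all libraries, and the difference did not pass the test (log2 fold change -0.21, SE 0.14, edgeR adjusted p = 0.466 in 8 libraries; -0.19, edgeR adjusted p = 0.538 in 7). Insig2 ranged from 45.4 to 51.9 CPM in the homozygous and from 49.7 to 52.4 CPM in the heterozygous libraries, with a log2 fold change of -0.08 in 8 libraries and -0.12 in 7. Scap, the carrier, ranged from 71.0 to 78.2 CPM in the homozygous and from 74.3 to 75.1 CPM in the heterozygous libraries (log2 fold change 0.01 in 8 libraries and 0.02 in 7). Of 10 genes that cleave, degrade or hold SREBP, Scap or Insig proteins, 0 passed edgeR's test, with a median log2 fold change of 0.00 (0.03 in 7 libraries). Past that test 0.67% of all genes fell and 0.55% rose in 7 libraries, and 0% in 8. At an unadjusted p under 0.05, 2 of these 10 were higher in each fit (7.87% of all genes in 8 libraries and 9.51% in 7) and 0 were lower (8.9% and 9.94%). Among them was Pgrmc1, a membrane protein known to bind Insig1, which averaged 283 ± 17.6 CPM in the homozygous and 237 ± 7.53 CPM in the heterozygous libraries (SD, n = 4 each). It did not pass in 8 libraries (log2 fold change 0.25, SE 0.06, edgeR adjusted p = 0.13) or in 7 (0.29, SE 0.06, edgeR adjusted p = 0.0532), where the 3 homozygous libraries averaged 291 CPM.

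Fatty acid synthesis genes shared the sign of the sterol genes, although Srebf1 did not. Of 14 genes of this list 13 had a negative log2 fold change in each fit, where 49.6% of all genes did so in 8 libraries and 49.5% in 7, and the median was -0.29 in 8 libraries and -0.35 in 7. Past edgeR's test 2 fell in 7 libraries, against 0.67% of all genes, and 0 in 8, against 0%. In 8 libraries, 8 of the 14 had an unadjusted p under 0.05 with a lower level and 0 with a higher one, against 8.9% and 7.87% of all genes. Elovl6, which lengthens palmitate, stood at 60.2, 46.8, 52.1 and 61.0 CPM in the homozygous libraries, against 75.7, 73.5, 72.9 and 81.2 CPM in the heterozygous libraries. Acly, which supplies acetyl-CoA from citrate to both pathways, stood at 236, 192, 176 and 196 CPM in the homozygous libraries, against 227, 244, 251 and 249.9 CPM in the heterozygous libraries. Elovl6 did not overlap, and for Acly only homozygous replicate 1 stood within the heterozygous range. In 7 libraries the log2 fold changes were -0.51 (SE 0.09, edgeR adjusted p = 0.0378) for Elovl6 and -0.37 (SE 0.07, edgeR adjusted p = 0.0406) for Acly. In 8 libraries they were -0.46 (edgeR adjusted p = 0.0962) for Elovl6 and -0.28 (edgeR adjusted p = 0.164) for Acly.

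The genes of efflux, sensing and storage were close to level, with a median log2 fold change over the 8 genes of -0.07 in 8 libraries and -0.06 in 7. Stard4 was the 1 gene among them that passed the test. It stood at 41.1, 29.1, 35.9 and 32.2 CPM in the homozygous libraries, against 44.3, 48.5, 49.1 and 40.3 CPM in the heterozygous libraries. Homozygous replicate 1 stood above heterozygous replicate 4, and the other 3 homozygous libraries lay below every heterozygous library. In 7 libraries Stard4 averaged 32.4 ± 3.38 CPM in the homozygous libraries (SD, n = 3) and 45.6 ± 4.09 CPM in the 4 heterozygous libraries. It fell there (log2 fold change -0.49, SE 0.09, edgeR adjusted p = 0.0462). In 8 libraries the log2 fold change was -0.40 (SE 0.11, edgeR adjusted p = 0.142). Stard4 is a known SREBP target.

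Abca1 and Abcg1, the transporters that export cholesterol and are LXR targets, had positive differences that did not pass the test. Abca1 stood at 43.8, 65.0, 41.7 and 44.7 CPM in the homozygous libraries, against 33.1, 29.7, 37.3 and 46.0 CPM in the heterozygous libraries. The groups overlapped through heterozygous replicate 4, and homozygous replicate 2 was the highest library (log2 fold change 0.42, SE 0.17, edgeR adjusted p = 0.269 in 8 libraries; 0.46, SE 0.19, edgeR adjusted p = 0.23 in 7). Abcg1 ranged from 54.4 to 63.3 CPM in the homozygous and from 50.4 to 55.6 CPM in the heterozygous libraries (log2 fold change 0.12 in 8 libraries, SE 0.06, edgeR adjusted p = 0.355; 0.15 in 7, edgeR adjusted p = 0.277). The receptors themselves overlapped: Nr1h2 (LXR beta) ranged from 30.7 to 34.7 CPM in the homozygous and from 29.1 to 34.7 CPM in the heterozygous libraries. Nr1h3 (LXR alpha) ranged from 2.38 to 3.26 CPM in the homozygous and from 2.36 to 3.80 CPM in the heterozygous libraries. In 8 libraries the log2 fold change was -0.03 for Nr1h2 and -0.13 for Nr1h3, and in 7 libraries -0.02 and -0.19. Mylip, a ubiquitin ligase for lipoprotein receptors and an LXR target, ranged from 8.45 to 12.0 CPM in the homozygous and from 9.97 to 12.6 CPM in the heterozygous libraries (log2 fold change -0.11 in both fits). A list of 10 further genes of LXR signalling holds the retinoid X receptors, coregulators and transporters. In both fits 0 of these 10 passed edgeR's test, where 0.67% of all genes fell and 0.55% rose in 7 libraries and 0% in 8. In both fits 0 had an unadjusted p under 0.05. Of all genes 8.9% were lower and 7.87% higher at that p in 8 libraries, and 9.94% and 9.51% in 7. The median log2 fold change of the list was -0.02, with a range of -0.17 to 1.24 in 8 libraries and -0.22 to 0.79 in 7. Soat1, which esterifies cholesterol for storage, ranged from 29.8 to 37.1 CPM in the homozygous and from 32.2 to 41.3 CPM in the heterozygous libraries. Cyp46a1, the neuronal hydroxylase that makes 24-hydroxycholesterol for export, ranged from 130.0 to 168 CPM in the homozygous and from 125 to 152 CPM in the heterozygous libraries. Their log2 fold changes in 8 libraries were -0.10 for Soat1 and 0.09 for Cyp46a1 (-0.15 and 0.12 in 7 libraries), and neither passed the test.

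Among 14 further genes of sterol transport the median log2 fold change was -0.07 in 8 libraries and -0.08 in 7, and among 5 genes of oxysterol and bile acid metabolism it was -0.05 and 0.00. Of these 19 genes 0 passed edgeR's test in either fit, where 0.67% of all genes fell and 0.55% rose in 7 libraries and 0% in 8. At an unadjusted p under 0.05 in 8 libraries, 2 of the 14 transport genes and 1 of the 5 oxysterol genes were lower and 0 were higher, against 8.9% and 7.87% of all genes. In 7 libraries 3 of the 14 and 2 of the 5 were lower, against 9.94% of all genes, and 1 of the 5 was higher, against 9.51%. The higher gene was Ch25h, the cholesterol 25-hydroxylase, at 0.183, 0.558, 0.604 and 1.6 CPM in homozygous replicates 1 to 4, against 0.454, 0.133, 0.384 and 0.419 CPM in heterozygous replicates 1 to 4. Homozygous replicates 2 to 4 lay above every heterozygous library, on counts as low as 4 in a library, and Ch25h did not pass in 7 libraries (log2 fold change 1.39, SE 0.47, edgeR adjusted p = 0.153) or in 8 (1.04, SE 0.59, edgeR adjusted p = 0.395).

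**Figure D4:**
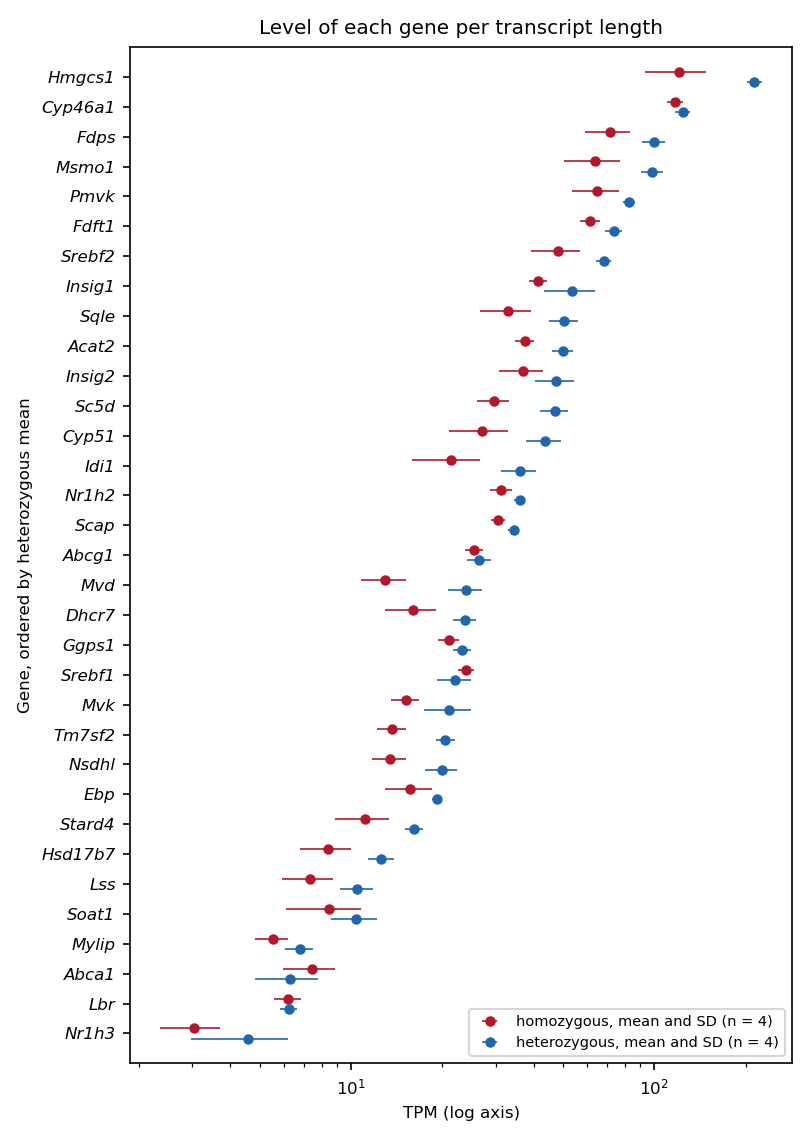
TPM (x axis, log scale) of each gene as the mean and SD over 4 homozygous (red) and 4 heterozygous (blue) libraries, ordered by the heterozygous mean. Hmgcs1 leads at 121 TPM in the homozygous and 214 TPM in the heterozygous libraries, while Nr1h3 is lowest at 3.03 TPM in the homozygous and 4.58 TPM in the heterozygous libraries.

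Levels of different genes can be compared only per transcript length, as TPM. In the heterozygous libraries the order ran from Hmgcs1, Cyp46a1, Fdps and Msmo1 to Abca1, Lbr and Nr1h3. Hmgcs1 averaged 121 ± 27.6 TPM in the homozygous and 214 ± 12.4 TPM in the heterozygous libraries (SD, n = 4 each). Cyp46a1 averaged 117 ± 7.21 TPM in the homozygous and 124 ± 7.03 TPM in the heterozygous libraries, so that the gap between these genes was smaller than the SD of Hmgcs1 in the homozygous libraries and larger than either SD in the heterozygous ones. Fdps averaged 71.2 ± 12.2 TPM in the homozygous and 99.9 ± 8.85 TPM in the heterozygous libraries. Msmo1 averaged 63.7 ± 13.4 TPM in the homozygous and 98.4 ± 8.28 TPM in the heterozygous libraries, and within each group these neighbours differed by less than their SD. TPM shifted all genes: the median difference over all genes was -0.14 on the log2(TPM + 1) scale in 8 libraries and -0.175 in 7, and the difference of each gene on this scale includes it. Relative to it, the step medians in 8 libraries were -0.32 for the mevalonate steps, -0.41 for the sterol steps, -0.20 for SREBP control and -0.08 for efflux. On this scale, before the shift is taken off, the signs of Ggps1, Scap, Abcg1 and Cyp46a1 turned negative in both fits, as did that of Lbr in 8 libraries.

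**Figure D5:**
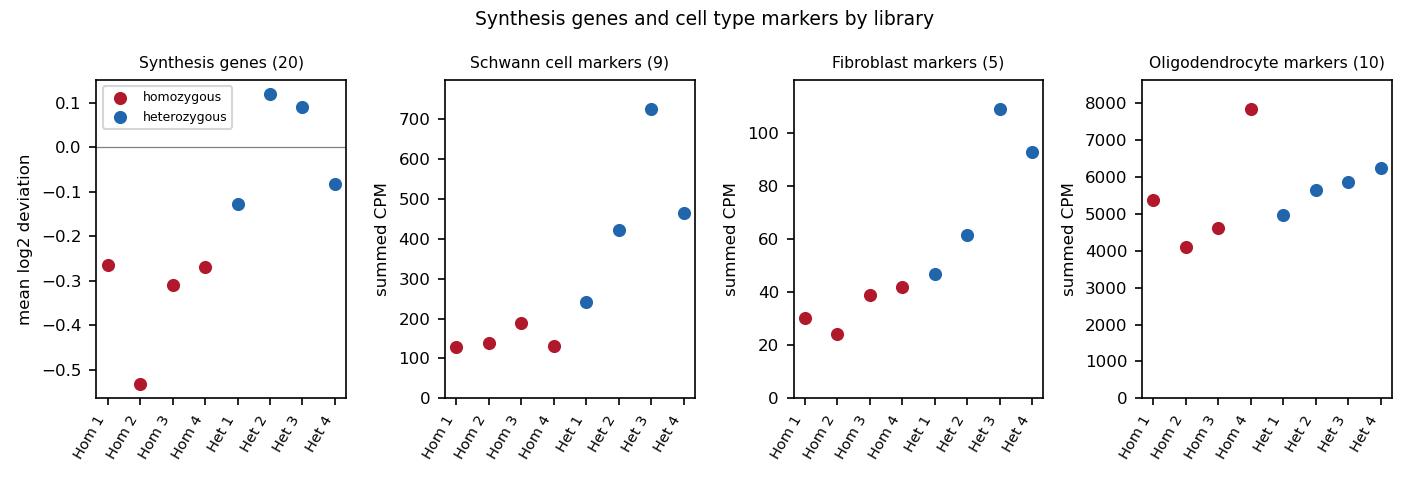
Mean log2 deviation of the 20 synthesis genes and summed CPM of Schwann cell, fibroblast and oligodendrocyte markers in each library, with homozygous libraries in red on the left of each panel. The Schwann cell sum is 129 to 189 CPM in the homozygous libraries and 242 to 726 CPM in the heterozygous ones.

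Spinal cord tissue holds several cell types that make sterols, and in such bulk samples fewer cells of a type and less RNA per cell cannot be told apart. The labelled tissue was checked by 7 neuron markers, which summed to 5384 to 5961 CPM in the homozygous and 4970 to 6340 CPM in the heterozygous libraries. Markers of Schwann cells, the myelinating cells of peripheral nerve, had a lower sum in every homozygous library than in any heterozygous one. The 9 genes summed to 129 to 189 CPM in the homozygous and 242 to 726 CPM in the heterozygous libraries. For 6 of these 9 every homozygous library lay below every heterozygous one, against 4.67% of all genes, while 2 of the 9, Egr2 and Fbln5, had a positive log2 fold change. Fibroblast markers, 5 genes, summed to 24.2 to 41.8 CPM in the homozygous and 46.9 to 109 CPM in the heterozygous libraries, with all homozygous libraries below every heterozygous one for 4 of the 5, against the same 4.67%. Endothelial markers (6 genes) summed to 187 to 286 CPM in the homozygous and 269 to 333 CPM in the heterozygous libraries. No marker of these lists was at 0 in every library. The markers of oligodendrocytes, the myelinating cells of the spinal cord, overlapped: 10 genes summed to 4106 to 7850 CPM in the homozygous and 4965 to 6241 CPM in the heterozygous libraries. Astrocyte markers (6 genes) summed to 2630 to 3459 CPM in the homozygous and 3281 to 3856 CPM in the heterozygous libraries, and microglia markers (6 genes) to 222 to 281 CPM in the homozygous and 254 to 308 CPM in the heterozygous libraries. Adipocyte markers (5 genes) summed to 0.201 to 1.36 CPM in the homozygous and 0.137 to 3.21 CPM in the heterozygous libraries. The heterozygous library with the highest Schwann cell sum, replicate 3, and that with the lowest, replicate 1, stood 0.09 above and 0.13 below the heterozygous average of the synthesis genes on the log2 scale. Heterozygous replicates 2 and 4, with Schwann cell sums of 422 and 466 CPM, stood at 0.12 and -0.08. Heterozygous replicate 1 was also the lowest of its group for the oligodendrocyte sum, at 4965 CPM. Heterozygous replicate 4, the highest of that group at 6241 CPM, stood below heterozygous replicates 2 and 3 in the synthesis genes. Homozygous replicate 2, lowest for the synthesis genes at -0.53, had a Schwann cell sum of 139 CPM, above homozygous replicates 1 and 4. Its oligodendrocyte sum of 4106 CPM was the lowest of all libraries. Homozygous replicate 4, with the highest oligodendrocyte sum of 7850 CPM, stood at -0.27 for the synthesis genes. The part of these markers in the synthesis result was not tested.

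The 5 calls rest on few animals. In 7 libraries without any 1 of homozygous replicates 2 and 3 or heterozygous replicates 2, 3 and 4, edgeR called 0 of the 33 genes, and without homozygous replicate 4 or heterozygous replicate 1 it called 4 in each case. The number of all genes called also varied widely between these fits, as given at the end. The counts among the 33 were not set against it. Over these left-out fits the log2 fold changes stayed negative, from -0.86 to -0.59 for Hmgcs1 (edgeR adjusted p 0.0138 to 0.144) and from -0.85 to -0.65 for Mvd (edgeR adjusted p 0.0355 to 0.135). With the Xist level as a covariate edgeR called 0 of the 33 genes, and Hmgcs1 stood at -0.72 (edgeR adjusted p = 0.0764). In that fit fewer of all genes were called in each direction than without the covariate. Of the 33 genes, 10 had expected counts that were not whole in at least 1 library, among them Acat2, Idi1, Fdps and Cyp51, because reads shared with similar or overlapping transcripts were divided. The other 23, with all 5 that fell among them, had whole counts in every library.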

How the data were processed

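Each of the 8 libraries came from the spinal cord of a single mouse. The submitters' processing notes name cutadapt, STAR, Picard and RSEM on mm10, without versions. Per the file headers, the authors deposited TPM, FPKM and RSEM expected counts for every library; FPKM were not analysed. The series table of expected counts matched them (largest difference 0). The authors deposited their own edgeR comparison with log2 fold changes, p-values and false discovery rates (q-values), per the file headers, and a sequencing report with percent mapped and other values.

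Expected counts were rounded and compared by genotype label with edgeR 4.0.16 in R 4.3.3 (TMM, filterByExpr by group, robust quasi-likelihood, Benjamini-Hochberg over the 16511 genes tested in 8 libraries or 16560 in 7, threshold 0.05). Each SE belongs to a log2 fold change. CPM use the scaling factors of 8 libraries. The alternatives changed the size factors (median of ratios), the filter (none, or 1 CPM), the tool (DESeq2 1.42.0, limma-voom 3.58.1, edgeR without the robust option, limma on log2(TPM + 1)) or the design (the log2-CPM of Xist added), or left out each library. The procedure was tested on simulated data. It recovered 54.8% of 1.5-fold and 82.9% of 2-fold changes in 8 libraries, and 41.9% and 72.9% in 7. Of its calls, 9.09% in 8 libraries and 5.84% in 7 were of unchanged genes. Many differences of 1.5-fold or less would thus be missed. Members and lists were chosen with earlier results of these data known, as was the fit without homozygous replicate 1. Alternatives were recomputed for members past the threshold in either fit or with an unadjusted p under 0.05 in 8 libraries and for pathway genes past the threshold; the SE or adjusted p of some other genes is also given, and Pgrmc1, Ch25h, Egr2 and Fbln5 were named after their values were seen. Python 3.11.15 with pandas 2.3.3 and matplotlib 3.10.9 searched the RefSeq windows and drew the figures. With 4 libraries a group, precision is limited.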

Additional observations from a re-analysis of the deposited data

Results flagged for a closer look

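In 96 groups of 4 libraries (genes and list averages, by genotype), the gap of the farthest library to its nearest neighbour was set against the range of the group, and 8 groups exceeded Dixon's 95% critical value; chance alone gives about 5% of groups. For 4 of these the library was homozygous replicate 2. It stood at 50.4 CPM for Msmo1 (ratio 0.881, next library 72.4 CPM) and at 65.0 CPM for Abca1 (ratio 0.873, next library 44.7 CPM). Its average over the later sterol genes was -0.52 (ratio 0.903, next library -0.27), and over all 20 synthesis genes -0.53 (ratio 0.835, next library -0.31). Homozygous replicate 1 stood at 307 CPM for Arf1 (ratio 0.939, next library 39.9 CPM). Homozygous replicate 3 stood at 34.7 CPM for Nr1h2 (ratio 0.916, next library 31.0 CPM) and at 189 CPM for the Schwann cell sum (ratio 0.833, next library 139 CPM). Heterozygous replicate 2 stood at -0.06 for the average of the efflux genes (ratio 0.908, next library 0.02).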

How the results depend on the processing

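None of the 20 genes past the threshold in 7 libraries or with an unadjusted p under 0.05 in 8 (18 of the 33, Elovl6 and Acly) reversed under the alternatives run. Of the other genes, Ggps1, Scap, Abcg1 and Cyp46a1 turned negative on the log2(TPM + 1) scale in both fits, and Lbr in 8 libraries. No paired analysis was possible because the labels carry no replicate numbers shared between the groups. The cause of the changes below was not tested.

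With no filter, in 8 libraries 3 of the 33 genes, 2 of the 64 other pathway genes and 44 of all genes were lower, and 19 of all genes higher; in 7 libraries 8 pathway genes and 287 of all genes were lower, and 157 higher. DESeq2 in 8 libraries gave 12 of the 33, 5 pathway genes and 409 of all genes lower, and 0, 1 and 270 higher; in 7 libraries it gave 12, 10 and 650 lower, and 0, 1 and 431 higher. In 7 libraries limma-voom and the fit that was not robust each gave 1 of the 33 lower, and the second gave 69 of all genes lower. With the Xist covariate in 7 libraries 0 of the 33, 1 pathway gene and 30 of all genes were lower, and 33 higher. Limma on log2(TPM + 1) gave 20 of the 33, 17 pathway genes and 2095 of all genes lower in 7 libraries, and 1 of all genes lower in 8. On that scale the medians of the mevalonate, sterol, SREBP and efflux genes were -0.47, -0.55, -0.35 and -0.23 in 8 libraries and -0.53, -0.62, -0.37 and -0.26 in 7, with the shift of all genes included.

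Leaving out 1 library gave, in 8 libraries, 0 to 5 of the 33, 0 to 2 pathway genes and 0 to 111 of all genes lower, 0 to 91 higher, and an efflux median of -0.064 to -0.02. In 7 libraries it gave 0 to 4, 0 to 5 and 3 to 263 lower, 3 to 139 higher, and an efflux median of -0.087 to 0.013, positive without homozygous replicate 4.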
